A study of Rattus norvegicus with 17 samples.

Results

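The somatostatin receptor genes described here are Sstr1, Sstr2, Sstr3 and Sstr5, 4 of the 14506 genes measured on arrays of rat tumour tissue after treatment with NVP-BEZ235, a compound that blocks phosphoinositide 3-kinase and mTOR. They were chosen by symbol as targets of therapy, and each was read by a single probe set (Sstr1 10884732, Sstr2 10739364, Sstr3 10905312 and Sstr5 10741456). The series holds 17 arrays: 4 from rats given NVP-BEZ235 at 30 mg/kg (3 female, 1 male), 6 at 20 mg/kg (4 female, 2 male) and 7 from control rats given polyethylene glycol (PEG) at 20 mg/kg (5 female, 2 male). All rats were 8 months old, of a mixed Sprague-Dawley white eye and Wistar-Kyoto background, and carried a germline mutation of Cdkn1b, which encodes p27, an inhibitor of the cell cycle. The sample labels call the rats homozygous for it, whereas the design text calls them heterozygous. Controls carried the mutation too, so no comparison with wild-type tissue was possible, and the duration of treatment and the time of sampling were not given in the sources used here.

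Somatostatin receptors are G protein-coupled receptors for the peptides somatostatin and cortistatin. Through Gi and Go proteins they lower cyclic AMP, open inwardly rectifying potassium channels and close voltage-gated calcium channels, which restrains hormone secretion, and they can also restrain growth through tyrosine phosphatases. Tumours of neuroendocrine origin, pheochromocytomas and pituitary adenomas among them, often carry these receptors. Sstr2 is the main target of octreotide, lanreotide and the radiolabelled analogues used in imaging and radionuclide therapy, whereas pasireotide also binds the products of Sstr1, Sstr3 and Sstr5.

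The tissue was labelled pituitary adenoma, while the title of the series names pheochromocytoma, the tumour of adrenal chromaffin cells. The catecholamine genes Th and Dbh averaged 12.29 ± 0.32 and 12.32 ± 0.25 (log2, SD, n = 17), and Cyp11a1 and Star, genes of steroid synthesis in the adrenal cortex, averaged 12.02 ± 0.26 and 12.11 ± 0.19. All 4 lay above the upper quartile of their array in 17 of 17 arrays. Medians and quartiles of an array, here and below, are those of all its 29214 probe sets. Growth hormone (Gh1, 3.86 ± 0.42), Fshb (4.06 ± 0.19), Tshb (4.21 ± 0.39) and the pituitary factor Pou1f1 (3.32 ± 0.19) lay above the array median in 0 of 17, as did Ghrhr (4.14 ± 0.13). Of the other 4 of 9 pituitary markers, prolactin (Prl) lay above the median in 11 of 17 arrays and above the upper quartile in 2, with values up to 9.16 in control sample 2. Lhb did so in 6 arrays, Pomc in 3, with values up to 7.86, and Cga in 1. The defining markers of adrenal medulla and cortex were thus high in every array, those of the pituitary low or variable, and the samples are called treated and control tumours below without a tissue name. Titles numbered the samples 1 to 10. The 30 mg/kg tumours and 4 controls held numbers 1 to 4, and the 20 mg/kg tumours and the other 3 controls held numbers 5 to 10. A direct difference between doses therefore cannot by itself be told apart from a difference between these sets. Both sets hold controls, so changes against control were also fitted within each set. The lower quartile of an array ran from 3.80 to 3.85 at 30 mg/kg, from 3.66 to 3.76 at 20 mg/kg, from 3.78 to 3.91 in controls 1 to 4 and from 3.65 to 3.76 in controls 5 to 7.

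The 120 bases before the annotated start of each receptor gene are shown because cyclic AMP is the messenger that the receptors lower and because the genes did not move together. They come from RefSeq, rat build GRCr8, are written 5′ to 3′ on the strand of the gene, and all 4 genes matched by symbol. Capitals mark the cyclic AMP response element TGACGTCA and its core TGACG, or CGTCA on the other strand. Sstr2 lies on chromosome 10 (window chr10:99163233-99163352, plus strand), Sstr1 on chromosome 6 (chr6:81567363-81567482, plus strand), Sstr3 on chromosome 7 (chr7:111980251-111980370, minus strand) and Sstr5 on chromosome 10 (chr10:15017470-15017589, minus strand).
Sstr2: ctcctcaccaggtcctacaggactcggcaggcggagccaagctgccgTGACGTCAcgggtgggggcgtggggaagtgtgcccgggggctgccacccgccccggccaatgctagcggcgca
Sstr1: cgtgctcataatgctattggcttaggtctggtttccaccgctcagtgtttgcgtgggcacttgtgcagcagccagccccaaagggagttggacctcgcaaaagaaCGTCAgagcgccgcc
Sstr3: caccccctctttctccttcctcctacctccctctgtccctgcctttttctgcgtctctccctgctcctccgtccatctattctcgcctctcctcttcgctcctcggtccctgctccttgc
Sstr5: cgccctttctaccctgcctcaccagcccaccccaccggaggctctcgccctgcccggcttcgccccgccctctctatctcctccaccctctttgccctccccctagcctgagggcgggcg

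The full element TGACGTCA stood 73 to 66 bases before the start of Sstr2 and in none of the other 3 windows. It occurred in 396 of 33469 rat windows of the same length (1.183%). Its core TGACG, which the full element contains on both strands, stood 15 to 11 bases before the start of Sstr1, and occurred in 11.488% of all windows. The letters CCAAT were found before Sstr2 and Sstr1 (19.869% of all windows), and GGGCGG before Sstr2 and, at 2 places, Sstr5 (23.726%). The FOXO motif GTAAACA, searched on both strands as were the others, was in none of the 4 windows and in 1.407% of all windows. The windows of Sstr2 and Sstr5 were 72.5% and 71.7% G and C, and those of Sstr3 and Sstr1 60.0% and 57.5%. These matches describe the letters only; no binding was measured.

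Values are log2 intensities summarised by RMA, and each probe set has its own affinity, so a receptor's level is set against the other features of its own array and not against another receptor. Sstr2 lay above the median of all 29214 probe sets in 17 of 17 arrays and above the upper quartile in 2, both of them controls. Percentiles are given among the 14506 genes, a different reference from the probe sets. That of Sstr2 averaged 56.5 at 30 mg/kg, 52.1 at 20 mg/kg and 64.2 in controls, and was lowest at 49.8 in 20 mg/kg tumour 10. Sstr1 lay above the median of all probe sets in 9 of 17 arrays, and its percentile among genes ran from 13.5 to 84.8. Sstr3 lay above that median in 5 of 17 arrays (percentiles among genes 32.1 to 50.6), and Sstr5 in 0 of 17 (22.4 to 36.5). Both lay above the lower quartile of all probe sets in every array. Of the 4 receptor genes, only Sstr2 thus lay above the median of all probe sets in every tumour, treated or control.

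The spread between tumours differed among the receptor genes. Sstr1 had an SD of 1.138 over the 17 arrays, more than 99.5% of genes had, and it covered a range of 4.62. The SD was 0.486 for Sstr2 (85.4th percentile of genes), 0.318 for Sstr3 (58.7th) and 0.236 for Sstr5 (34.5th). Among the 7 controls alone the SD of Sstr1 was 1.253, so the wide spread was also there in tumours not given the drug.

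**Figure D1:**
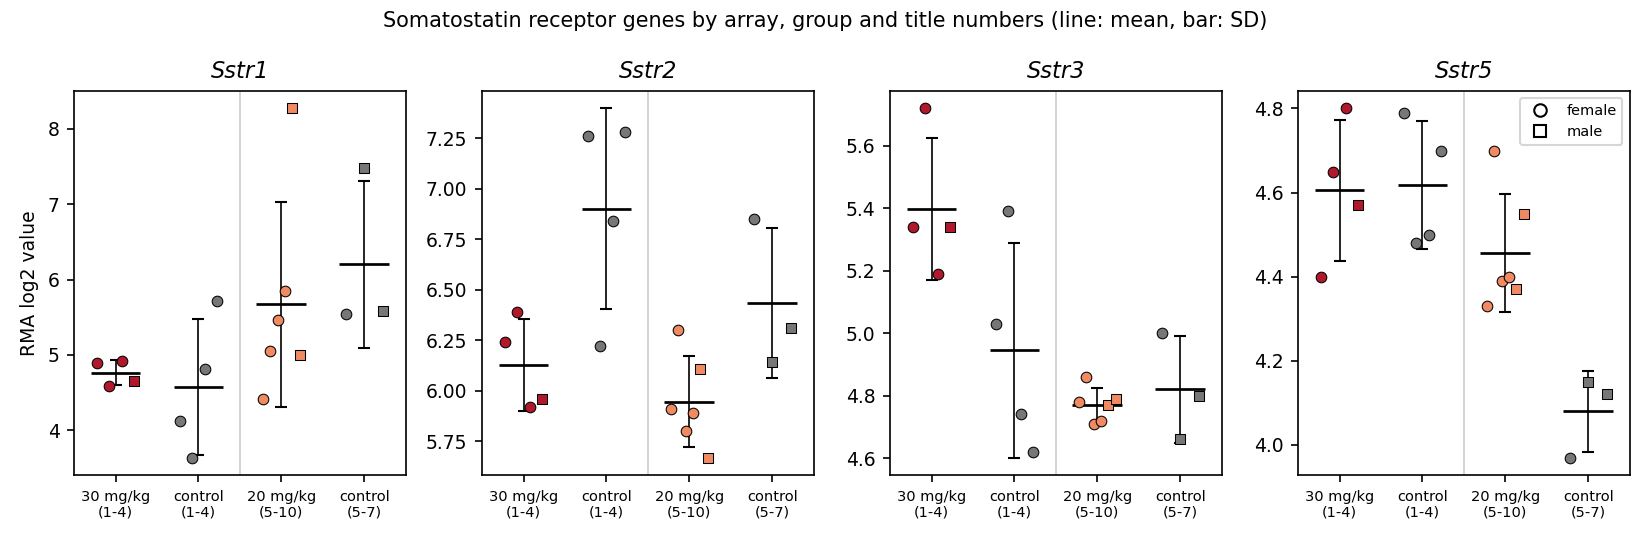
RMA log2 value of Sstr1, Sstr2, Sstr3 and Sstr5 in each array, by group and by the numbers in the sample titles (30 mg/kg and control tumours numbered 1 to 4, 20 mg/kg and control tumours numbered 5 to 10); circles are female and squares male rats, the line is the mean and the bar 1 SD. Sstr2 sits below the control mean of 6.70 in all 10 treated tumours, Sstr3 is higher in the 4 tumours at 30 mg/kg than in the 6 at 20 mg/kg, and Sstr1 ranges from 3.64 to 8.27.

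Treatment was compared with control across all genes, with sex as a term. Sstr2 fell in treated tumours, to 0.626 of the control signal, and was the only 1 of the 4 receptor genes to pass the test, where 1.48% of all genes did and 0.965% were lower. Its values at 30 mg/kg were 6.24, 6.39, 5.92 and 5.96. They ran at 20 mg/kg from 5.67 to 6.30 with a median of 5.90, against 6.14 to 7.28 with a median of 6.84 in controls. All 10 treated tumours lay below the control mean and 7 of 10 lay below the lowest control, while 3 of 7 controls, at 6.14, 6.22 and 6.31, lay within the treated range. Sstr2 averaged 6.02 ± 0.23 in treated tumours (SD, n = 10) and 6.70 ± 0.48 in controls (SD, n = 7), and the change was -0.68 ± 0.15 (log2, SE; 95% interval -0.99 to -0.36; limma with Benjamini-Hochberg adjustment, adjusted p = 0.033). By p it ranked 127 of the 14506 genes. In bulk tumours a smaller share of cells that carry a transcript and less transcript per cell cannot be told apart.

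Sstr2 was lower than control at both doses, and the difference between the doses was not resolved. At 20 mg/kg the change was -0.74 ± 0.17 (SE; adjusted p = 0.042 by limma), where 1.18% of genes passed, and at 30 mg/kg it was -0.58 ± 0.19 (adjusted p = 0.066), which did not pass. The difference between the doses themselves, 30 minus 20 mg/kg, was 0.15 ± 0.20 with a 95% interval of -0.26 to 0.57 (adjusted p = 0.63). Within title numbers 1 to 4, Sstr2 was 6.13 ± 0.23 at 30 mg/kg and 6.90 ± 0.50 in controls (SD, n = 4 each). The fitted change was -0.72 ± 0.27 (SE, limma adjusted p = 0.45). In that set 30 mg/kg tumour 4 was the only male, and the sex term took up its array. Every change fitted within numbers 1 to 4, here and below, thus compares the 3 female 30 mg/kg tumours with the 4 controls. Within numbers 5 to 10 Sstr2 was 5.95 ± 0.22 at 20 mg/kg (n = 6) and 6.44 ± 0.37 in controls (n = 3), a change of -0.58 ± 0.17 (limma adjusted p = 0.12). The direction was the same within both sets, and with the set as a term over all arrays the change was -0.64 (adjusted p = 0.019). The labels do not say that the samples came from separate animals, so these p-values measure the spread between samples.

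The Sstr2 call sat close to the threshold. Leaving out 1 array at a time, it passed in 7 of 17 fits, with adjusted p from 0.014 to 0.072 and changes from -0.78 to -0.59. It did not pass without control 1, 3, 4, 5 or 7, without 30 mg/kg tumour 1 or 3, or without 20 mg/kg tumour 7, 8 or 10. The call at 20 mg/kg was lost without control 1, 3, 4 or 7, 30 mg/kg tumour 4 or 20 mg/kg tumour 5, 6, 7, 8 or 10 (adjusted p up to 0.12), and that at 30 mg/kg passed only without control 2 (adjusted p = 0.022). With both doses together the change was -0.69 (adjusted p = 0.053) after quantile normalization and -0.68 (adjusted p = 0.058) without the sex term. Of 8 lymphocyte and macrophage markers, 4 fell with treatment, where 0.965% of all genes did. Cd74 averaged 9.67 in treated and 11.16 in control tumours, and Ptprc 5.22 and 6.47. Cd68 (7.41 and 7.79) and Csf1r (6.48 and 6.85) differed less, and Cd163 was not lower (6.99 and 6.93). The mean level of the list per array ran from 5.54 to 5.96 at 30 mg/kg, from 5.81 to 6.42 at 20 mg/kg and from 6.48 to 6.82 in controls. Treated and control tumours did not overlap in this mean, and how many of all genes separated them in this way was not counted. Of the whole list Cd74 was the brightest (10.28 ± 1.04), while Cd2 and Cd3e stayed below the array median in all 17 arrays. In the same comparison, where 1.48% of all genes passed, 1 of 6 endothelial markers rose (Flt1) and 1 of 6 fibroblast markers fell (Col3a1). The endothelial mean per array ran from 7.25 to 7.89 in treated and from 7.05 to 7.66 in control tumours, and the fibroblast mean from 6.26 to 6.78 in treated and from 6.57 to 6.96 in control tumours. Of the 7 measured chromaffin markers none passed with both doses together, and Ddc fell at 30 mg/kg. The mean level of the list was 10.59 ± 0.35 at 30 mg/kg, 10.93 ± 0.19 at 20 mg/kg and 10.92 ± 0.18 in controls. The part of cell makeup in the Sstr2 result was not tested.

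**Figure D2:**
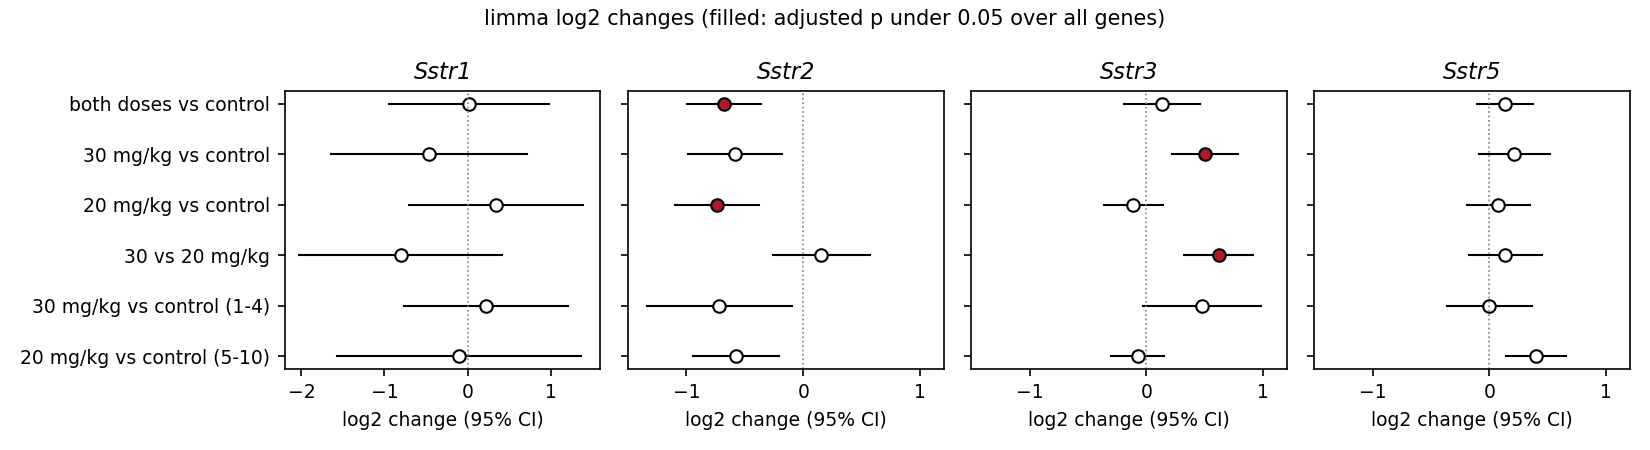
Change of each somatostatin receptor gene on the log2 scale in each comparison (limma, point: estimate, bar: 95% interval; 0 marks no difference). The interval of Sstr2 lies below 0 with both doses pooled (-0.99 to -0.36), and that of Sstr3 lies above 0 at 30 mg/kg against control (0.22 to 0.79) and against 20 mg/kg (0.33 to 0.91).

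Sstr3 was higher at 30 mg/kg than in controls and than at 20 mg/kg, and did not differ detectably between 20 mg/kg and control. Its values at 30 mg/kg were 5.34, 5.72, 5.19 and 5.34. The 6 tumours at 20 mg/kg ran from 4.71 to 4.86 with a median of 4.78, against 4.62 to 5.39 with a median of 4.80 in controls. The 30 mg/kg tumours all lay above the 20 mg/kg tumours and above the control mean, whereas control 2, at 5.39, lay above 3 of them. How many of all genes separated the doses in this way was not counted. Sstr3 rose by 0.50 ± 0.13 at 30 mg/kg against control (log2, SE; 95% interval 0.22 to 0.79; 1.42-fold; limma adjusted p = 0.027), where 8.55% of all genes passed. Against 20 mg/kg it was 0.62 ± 0.14 higher (95% interval 0.33 to 0.91; 1.53-fold; adjusted p = 0.012), where 12.1% of genes passed. At 20 mg/kg the change against control was -0.11 ± 0.12 (95% interval -0.36 to 0.14; adjusted p = 0.66), and with both doses together it was 0.13 ± 0.15 (adjusted p = 0.78).

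Because each dose lay in 1 set of title numbers, Sstr3 was also compared within the sets. Within numbers 1 to 4 it was 5.40 ± 0.22 at 30 mg/kg and 4.94 ± 0.34 in controls (SD, n = 4 each). The fitted difference, with male tumour 4 taken up by the sex term, was 0.47 ± 0.22 (SE, limma adjusted p = 0.57). Within numbers 5 to 10 Sstr3 was 4.77 ± 0.05 at 20 mg/kg (n = 6) and 4.82 ± 0.17 in controls (n = 3), a difference of -0.08 ± 0.10 (adjusted p = 0.78). The difference between these changes was 0.55 ± 0.23 (limma adjusted p = 0.72). In that comparison 0 of 14506 genes passed, while 971 (6.69%) had an unadjusted p under the threshold. Neither within-set change passed on its own. Leaving out 1 array, the change at 30 mg/kg against control stayed between 0.41 and 0.59 and was not called without control 6 or 7 or without 30 mg/kg tumour 2 or 4 (adjusted p up to 0.098). Against 20 mg/kg it was not called without 30 mg/kg tumour 4 (adjusted p = 0.058). Of the pituitary list, 0 of 9 members passed in either comparison, and its mean level per array ran from 4.34 to 4.67 at 30 mg/kg, from 3.97 to 4.37 at 20 mg/kg and from 4.04 to 4.76 in controls. Among all genes 8.55% passed at 30 mg/kg against control and 12.1% against 20 mg/kg. Other marker lists held calls in these comparisons. Of 6 endothelial markers, 2 rose against control and against 20 mg/kg. Their mean per array ran from 7.81 to 7.89 at 30 mg/kg, from 7.25 to 7.73 at 20 mg/kg and from 7.05 to 7.66 in controls. In this mean the 30 mg/kg tumours did not overlap with the others, and how many of all genes separated them in this way was not counted. Of 8 lymphocyte and macrophage markers, 5 fell against control and 2 against 20 mg/kg. Of 7 chromaffin markers, 1 fell against control (Ddc) and 2 against 20 mg/kg (Ddc and Slc18a1). Of 8 cortex markers, 0 passed against control and 2 rose against 20 mg/kg. Of 6 fibroblast markers, 1 rose and 1 fell against control, and 2 rose against 20 mg/kg. Prolactin itself was 6.16 ± 0.63 at 30 mg/kg, 4.62 ± 0.33 at 20 mg/kg and 6.15 ± 1.46 in controls (SD). The part of these markers in the Sstr3 result was not tested.

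Sstr1 ranged too widely between tumours for the arrays to resolve a treatment change. Its values at 30 mg/kg were 4.89, 4.59, 4.92 and 4.66, a narrow range. In the 20 mg/kg tumours they ran from 4.41 to 8.27 with a median of 5.26, against 3.64 to 7.48 with a median of 5.54 in controls. The treated values lay within the control range apart from 8.27, and the 2 highest values, 8.27 at 20 mg/kg and 7.48 in a control, both came from male rats. With both doses together the change was 0.02 ± 0.46 (95% interval -0.94 to 0.98; adjusted p = 0.99), at 30 mg/kg it was -0.46 ± 0.56 (adjusted p = 0.69) and at 20 mg/kg 0.34 ± 0.50 (adjusted p = 0.76). These intervals reach nearly 1 log2 unit either way with both doses together, so changes up to that size could not be resolved.

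Sex was set against Sstr1 in the same fit. Sstr1 averaged 6.20 ± 1.59 in male (SD, n = 5) and 4.92 ± 0.67 in female rats (SD, n = 12), a difference of 1.28 ± 0.49 (SE; limma adjusted p = 0.25), and 0.241% of genes passed in this comparison. The difference did not pass the adjustment, and it was 0.74 without the male 20 mg/kg tumour 9 and 0.91 without the male control 6. The other 3 male tumours, at 4.66, 5.0 and 5.59, lay within the female range of 3.64 to 5.85. Male minus female, Sstr2 differed by -0.36 ± 0.16 (adjusted p = 0.30), and Sstr3 and Sstr5 differed by -0.14 ± 0.16 and -0.16 ± 0.12 (adjusted p = 0.71 and 0.56). For Sstr2 the treatment change differed between the sexes by 0.51 ± 0.32 (adjusted p = 0.76), which was not resolved, and 0.00689% of genes passed for that term.

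Sstr5 lay below the array median in every tumour, and none of its changes passed the test. Its values at 30 mg/kg were 4.40, 4.65, 4.80 and 4.57. Those at 20 mg/kg ran from 4.33 to 4.70 with a median of 4.39, against 3.97 to 4.79 with a median of 4.48 in controls. Both treated groups lay inside the control range but for the highest 30 mg/kg value. The change was 0.13 ± 0.11 with both doses together (95% interval -0.11 to 0.37; adjusted p = 0.69), 0.21 ± 0.14 at 30 mg/kg (adjusted p = 0.41) and 0.08 ± 0.13 at 20 mg/kg (adjusted p = 0.80). The control tumours themselves differed by set, at 4.62 ± 0.15 in numbers 1 to 4 (n = 4) and 4.08 ± 0.10 in numbers 5 to 7 (SD, n = 3). The former were all female, and 2 of the latter were male. Within numbers 5 to 10 all 6 tumours at 20 mg/kg lay above the 3 controls, a change of 0.39 ± 0.12 (SE; limma adjusted p = 0.13), in a comparison where 1.19% of genes passed; within numbers 1 to 4 the change was 0.00 ± 0.16 (adjusted p = 1), where 0.11% passed. The difference between these changes was -0.40 ± 0.18 (limma adjusted p = 0.72). How many of all genes kept the 20 mg/kg tumours and controls 5 to 7 fully apart was not counted.

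The remaining receptor of the family, Sstr4, was read by 1 probe set (10840565, chromosome 3). It averaged 4.84 ± 0.26 at 30 mg/kg, 4.22 ± 0.14 at 20 mg/kg and 4.51 ± 0.35 in controls (SD). It was 0.61 ± 0.17 higher at 30 than at 20 mg/kg (SE; limma adjusted p = 0.032, but 0.055 after quantile normalization), while against control the change was 0.32 ± 0.17 at 30 mg/kg (adjusted p = 0.26) and -0.29 ± 0.15 at 20 mg/kg (adjusted p = 0.34). Controls in numbers 1 to 4 were at 4.71 ± 0.33 and those in numbers 5 to 7 at 4.25 ± 0.17, and the within-set changes were 0.03 ± 0.21 and -0.04 ± 0.13. The difference between these changes was 0.11 ± 0.25 (SE, limma adjusted p = 0.95). For Sstr3 the same controls were at 4.94 and 4.82. Controls 1 to 4 were all female, and 2 of controls 5 to 7 were male. In the direct difference between the doses the parts of dose, set and sex cannot be told apart. Nor can those of set and sex in the controls, and these parts were not tested. The Sstr4 call was lost without 30 mg/kg tumour 3 or 4 or 20 mg/kg tumour 6, 7 or 8 (adjusted p up to 0.18).

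The receptor genes did not vary together. Over the 17 arrays, which share treatment groups, sex and sets, Pearson's r was -0.52 between Sstr1 and Sstr3, -0.43 between Sstr1 and Sstr5, -0.12 between Sstr1 and Sstr2, -0.04 between Sstr2 and Sstr3, 0.15 between Sstr2 and Sstr5 and 0.29 between Sstr3 and Sstr5. The genes whose pattern was most like each receptor were sought among 7246 genes with a mean above 5.78. For Sstr2 they were Tnfrsf19 (r = 0.82), Tmem106a (0.81), Svbp (0.80), Mmp19 (0.79) and Nfia (0.79), and after treatment and sex were taken out these values were 0.48, 0.53, 0.68, 0.53 and 0.60. For Sstr3 they were Adam15 (0.88), Ppan (0.84), Gdpd5 (0.83), Slc35a2 (0.82) and Trim24 (0.81). For Sstr1 they were Tspan2 (0.83), the sodium channel subunit gene Scn3b (0.83), Ppp1r9a (0.83), Ikbkb (0.82) and Akap13 (0.82), and for Sstr5 they were Foxj2 (0.83), Ctsa (0.80), Tex264 (0.77), Tbc1d22b (0.77) and Krtap10-10l2 (0.75). Being the highest of 7246 values, these describe likeness on these arrays and carry no test. With tissue markers, Sstr2 had r = -0.60 with Th, but -0.13 with Dbh and -0.04 with Chga. It had r = 0.58 with Cyp11a1, but -0.17 with Star. Once treatment and sex were taken out, the values for Th and Cyp11a1 were -0.13 and 0.17. Sstr3 had r = 0.63 with Prl and 0.58 with Star, which were then 0.79 and 0.56. Its r was 0.36 with Cyp11a1 and 0.23 with Pomc.

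On the ligand side, the somatostatin gene Sst rose at 30 mg/kg, in tumours that differed widely from each other. Its values there were 4.69, 5.13, 5.86 and 6.44, against 4.22 to 4.69 (median 4.50) at 20 mg/kg and 4.36 to 5.12 (median 4.69) in controls. Tumours 3 and 4 lay well above every control, tumour 2 barely so, and tumour 1 inside the control range. The change was 0.83 ± 0.24 at 30 mg/kg (SE; 1.77-fold; limma adjusted p = 0.037), -0.22 at 20 mg/kg (adjusted p = 0.63) and 0.20 ± 0.26 with both doses together (adjusted p = 0.82). Without 30 mg/kg tumour 4 it was 0.50 (adjusted p = 0.23), and it also lost the call without 30 mg/kg tumour 3 or control 3, 5, 6 or 7. Within numbers 1 to 4 it was 0.36 (adjusted p = 0.75), in a fit whose sex term takes up tumour 4. That value is therefore not separate from leaving tumour 4 out. With tumour 4 included, Sst averaged 5.53 ± 0.77 at 30 mg/kg and 4.87 ± 0.19 in controls 1 to 4 (SD). Cort, the gene of cortistatin, averaged 6.30 ± 0.44 at 30 mg/kg, 6.09 ± 0.26 at 20 mg/kg and 6.06 ± 0.38 in controls, with a change of 0.11 ± 0.16 for both doses (adjusted p = 0.85).

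The genes that process prohormones such as prosomatostatin were read with the ligands. With both doses together 0 of the 5 measured ligand and processing genes passed, the smallest p being those of Pcsk2, a prohormone convertase (0.88 ± 0.28, adjusted p = 0.13), and Furin, another convertase (0.43 ± 0.16, adjusted p = 0.19). At 30 mg/kg against control 4 of 5 rose, where 3.66% of all genes did: Sst, Pcsk2 (1.43 ± 0.29, adjusted p = 0.0058), Furin (0.77 ± 0.15, adjusted p = 0.0046) and Cpe, a carboxypeptidase (0.69 ± 0.16, adjusted p = 0.013, but 0.058 without 30 mg/kg tumour 4 and 0.05 without tumour 3). Within numbers 1 to 4 none of the 4 passed (adjusted p = 0.75, 0.17, 0.22 and 0.32 in that order), at changes of 0.36, 1.14, 0.76 and 0.71. In these fits too the sex term took up 30 mg/kg tumour 4. The median change of the list at 30 mg/kg was 0.77, beside 0.01 over all genes.

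**Figure D3:**
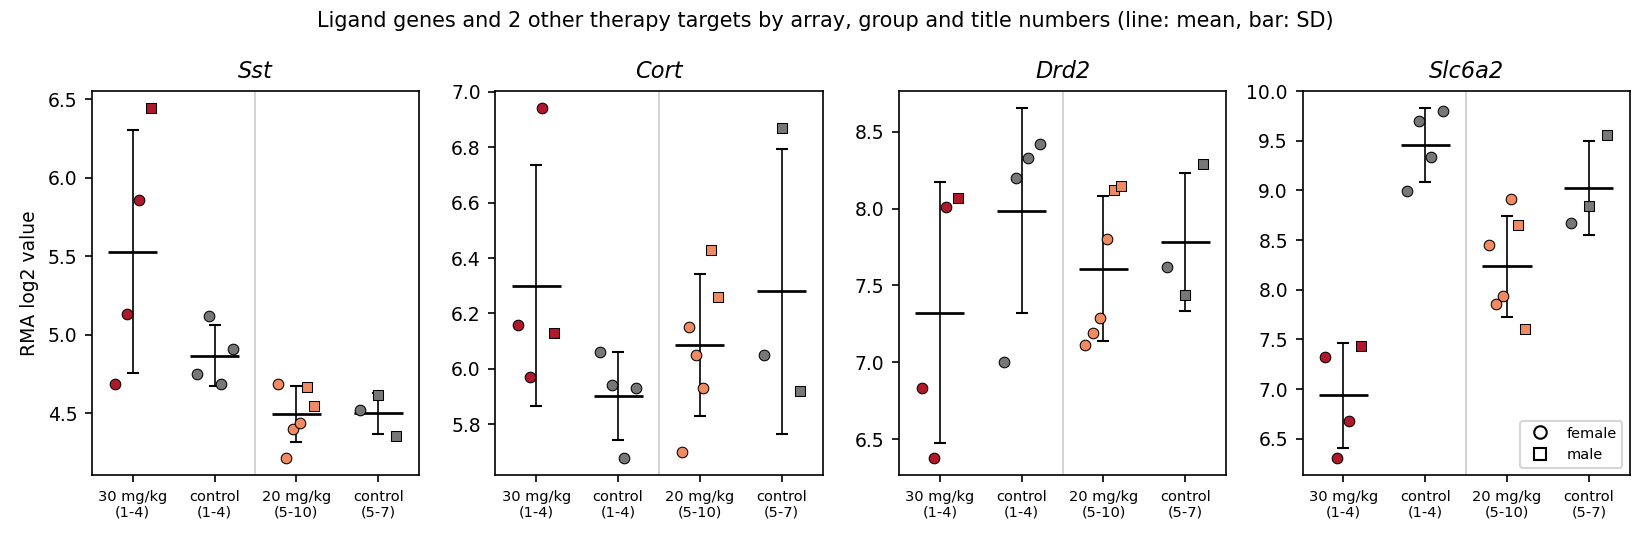
RMA log2 value of Sst, Cort, Drd2 and Slc6a2 in each array, by group and by the numbers in the sample titles; circles are female and squares male rats, the line is the mean and the bar 1 SD. Slc6a2 at 30 mg/kg (6.31 to 7.43) lies below every control (8.67 to 9.80), while Sst spreads from 4.69 to 6.44 at 30 mg/kg.

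Among the listed ligand, signalling and target genes, few passed the test with both doses together. Across 8 lists of ligand, signalling and target genes, 78 of 83 listed genes were measured, and with both doses together 0 rose and 2 fell (2.56%, beside 1.48% of all genes). One was Prkar2b, a regulatory subunit of the cyclic AMP-dependent protein kinase, at 7.68 ± 0.47 in treated (SD, n = 10) and 8.51 ± 0.40 in control tumours (n = 7), a change of -0.83 ± 0.20 (SE; limma adjusted p = 0.045). It fell by 1.16 on the log2 scale within numbers 5 to 10 (adjusted p = 0.012, but 0.06 without control 7) and was -0.60 within numbers 1 to 4 (adjusted p = 0.59). Leaving out 1 array, it passed in 4 of 17 fits for both doses (adjusted p up to 0.13): it was lost without control 1, 4, 5, 6 or 7, without 30 mg/kg tumour 1, 3 or 4, and without 20 mg/kg tumour 6, 7, 8, 9 or 10. The call was also lost without the sex term (0.059), with all probe sets (0.061), with the replicate block (0.063) and in female rats only, where the change was -0.55 (0.37). The other 12 measured adenylyl cyclase and kinase subunit genes did not pass.

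In the remaining signalling lists none passed with both doses together, and the 2 genes with the smallest p of each are given. Of 5 genes of Gi and Go alpha subunits, which couple the receptors to their effectors, these were Gnaz (-0.21 ± 0.15, adjusted p = 0.59) and Gnai1 (0.17 ± 0.17, adjusted p = 0.75). Of 9 effector channel genes they were the calcium channel gene Cacna1e (-0.15 ± 0.09, adjusted p = 0.51) and the potassium channel gene Kcnj3 (-0.31 ± 0.21, adjusted p = 0.56). Of 5 phosphatase and growth arrest genes they were Ptpn6 (-0.17 ± 0.10, adjusted p = 0.49) and Cdkn1b, the gene mutated in these rats (0.28 ± 0.17, adjusted p = 0.50). Of 14 desensitization and scaffold genes they were Rgs4 (-0.85 ± 0.31, adjusted p = 0.20), a regulator of G protein signalling, and the receptor kinase gene Grk5 (0.38 ± 0.19, adjusted p = 0.38). Of 15 other Gi-coupled receptors of neuroendocrine cells they were the adrenergic receptor Adra2b (-0.44 ± 0.11, adjusted p = 0.064) and the galanin receptor Galr1 (0.55 ± 0.39, adjusted p = 0.58). At 30 mg/kg against control, 7 of the 78 rose and 5 fell (15.38%, beside 8.55% of all genes), and at 20 mg/kg only Cdkn1b passed (0.55 ± 0.13, adjusted p = 0.042).

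Among other imaging and therapy targets of neuroendocrine tumours, Slc6a2 was the only 1 of 12 measured genes past the threshold with both doses together, where 1.48% of all genes passed. It encodes the noradrenaline transporter, which takes up metaiodobenzylguanidine, the tracer used beside somatostatin analogues in pheochromocytoma. Its values at 30 mg/kg were 7.32, 6.31, 6.68 and 7.43. The 20 mg/kg tumours ran from 7.60 to 8.91 with a median of 8.19, against 8.67 to 9.80 with a median of 9.34 in controls. The 30 mg/kg tumours overlapped with neither of the other groups, and 9 of 10 treated tumours lay below the lowest control. How many of all genes separated the groups in this way was not counted. By limma, 8.55% of all genes passed at 30 mg/kg against control and 12.1% against 20 mg/kg. Slc6a2 fell by 1.56 with both doses together (SE 0.32; adjusted p = 0.025) and fell by 2.33 at 30 mg/kg (SE 0.29; adjusted p = 0.00023). At 20 mg/kg its change of -1.04 ± 0.25 did not pass (adjusted p = 0.053), and 30 minus 20 mg/kg was -1.29 ± 0.29 (adjusted p = 0.013). Within numbers 1 to 4 it was -2.68 ± 0.28 (adjusted p = 0.017) and within numbers 5 to 10 -0.76 ± 0.31 (adjusted p = 0.26). Its call with both doses together was lost without control 4 or 7 (adjusted p up to 0.072), that within numbers 1 to 4 without control 2, 3 or 4 or 30 mg/kg tumour 2 or 3 (up to 0.097), and at 20 mg/kg it passed without control 5 (0.024) or 30 mg/kg tumour 2 (0.043). The chromaffin marker Ddc also fell at 30 mg/kg, averaging 8.88 ± 0.99 there, 10.89 ± 0.27 at 20 mg/kg and 10.84 ± 0.32 in controls (SD; against control -1.95 ± 0.31, SE, adjusted p = 0.0013). Slc18a1, a vesicular monoamine transporter gene, averaged 8.86 ± 1.13 at 30 mg/kg, 9.99 ± 0.36 at 20 mg/kg and 9.78 ± 0.28 in controls (SD; against control adjusted p = 0.11). The other 5 measured chromaffin markers did not pass against control, and the part of cell makeup in the Slc6a2 result was not tested.

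The change of Slc6a2 can be set beside that of Sstr2 as signal left. At 30 mg/kg Slc6a2 had 0.198 and Sstr2 0.667 of the control signal, though the Sstr2 change did not pass there (limma adjusted p = 0.066). On the log2 scale these changes were -2.33 and -0.58. At 20 mg/kg they lay closer together, at -1.04 for Slc6a2, which did not pass, and -0.74 for Sstr2. Each probe set has its own affinity, and the control means were 9.27 for Slc6a2 and 6.70 for Sstr2. Drd2, the dopamine receptor targeted by cabergoline and the other gene given here by rule, averaged 7.32 ± 0.85 at 30 mg/kg, 7.61 ± 0.47 at 20 mg/kg and 7.90 ± 0.55 in controls (SD). Its change was -0.41 ± 0.25 with both doses together (adjusted p = 0.51), with all groups overlapping. The glucose transporter gene Slc2a1 changed by 0.38 ± 0.16 with both doses together (adjusted p = 0.29).

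**Figure D4:**
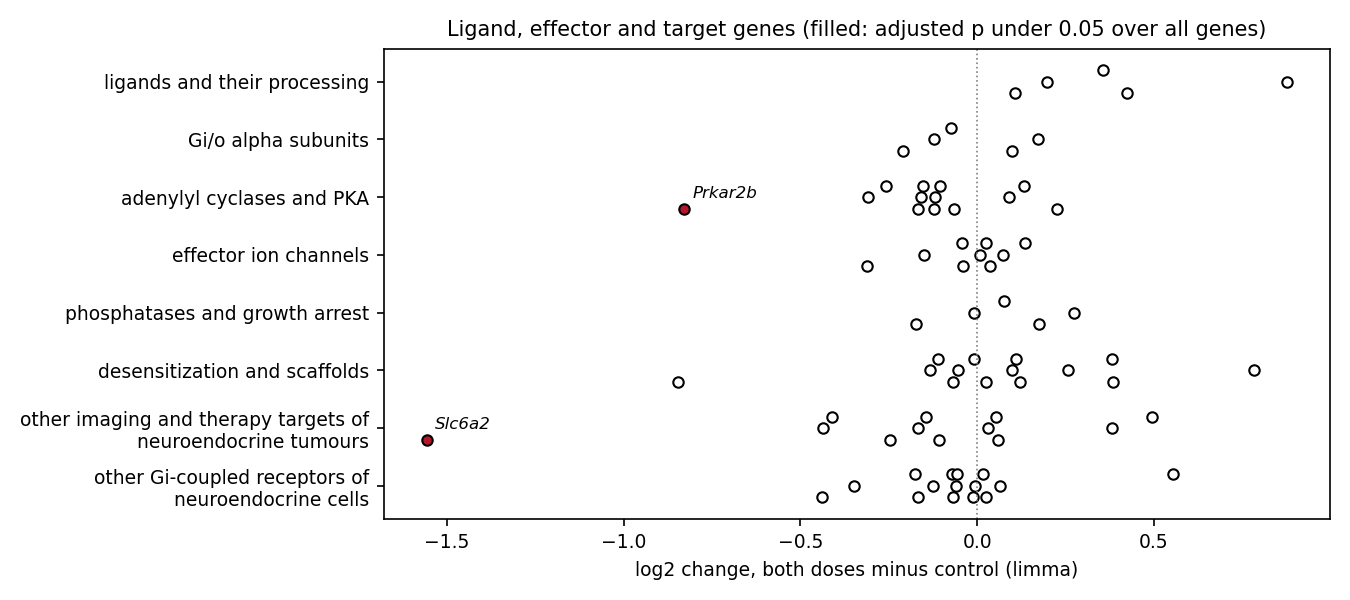
Change with both doses together minus control, on the log2 scale, of each of the 78 measured genes in 8 lists of ligand, signalling and target genes (each point is a gene, spread vertically only for visibility; filled where the limma adjusted p is under 0.05). Prkar2b and Slc6a2 pass the threshold, both lower in treated tumours.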

How the data were processed

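The deposited values are log2 intensities on Affymetrix arrays, made with Affymetrix Expression Console 1.3.0.187 and RMA (version not given), per the submitters' processing notes. RNA was extracted with DNase, amplified by a whole-transcriptome kit and biotin-labelled, per the labels' protocols. RMA normalizes arrays to one another, which can remove a change common to most transcripts; the deposited arrays still differed in median (4.95 to 5.11) and SD (2.04 to 2.2). Of 29214 probe sets, 15310 had 1 annotated symbol, and the brightest per symbol gave 14506 genes. These were fitted with limma 3.58.1 in R 4.3.3 (lmFit, eBayes, two-sided, Benjamini-Hochberg over all genes, threshold 0.05), with treatment or dose group and sex as terms. Within numbers 1 to 4 the sex term took up the only male array, 30 mg/kg tumour 4. Only the fit of both doses against control was tested on simulated data, with independent noise and planted changes larger than those called here for Sstr2 and Sstr3. The number of arrays limits the precision. Named genes were the 4 receptors, Sst, Cort, Drd2 and Slc6a2, list genes past the threshold with both doses together or otherwise the 2 with the smallest p, and the 5 most alike per receptor; Sstr4, the 30 and 20 mg/kg calls and the genes beside the receptors were added with values known. The receptors, lists and tests were chosen with earlier results of these data known. Alternatives were a fit without sex, a replicate block, quantile normalization, median centring, a mean over a gene's probe sets, a filter at the 25th percentile, trended and robust variances, array weights, the title-number set as a term, female rats only, all probe sets, and each array left out; leaving out arrays in the comparison of the sexes was added after seeing the data. Some listed genes were not analysed here.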

Additional observations from a re-analysis of the deposited data

Results flagged for a closer look

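Sstr1 in 20 mg/kg tumour 9, from a male rat, was at 8.27 on the log2 scale, far above the other 5 tumours of its group, which lay between 4.41 and 5.85. Its gap to the nearest of them was 0.627 of the group's range, against a critical value of 0.625 in Dixon's test. Chance alone exceeds that value in about 1 of 20 groups for a single gene. The ratio was computed for every receptor gene in every group without adjustment for their number, and only this one passed, barely. Sstr3 was 0.618 higher at 30 than at 20 mg/kg (SE 0.139; limma adjusted p = 0.012), a test of the difference between the doses. Each dose lay in its own set of title numbers, and the difference of the within-set changes was 0.55 (SE 0.229; limma adjusted p = 0.72).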

How the results depend on the processing

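With both doses together, Sstr2 kept its sign in all settings run, but did not pass without the sex term (-0.68, adjusted p = 0.058), after quantile normalization (-0.69, 0.053) or in female rats only (-0.83, 0.14). At 20 mg/kg it did not pass without the sex term (-0.76, 0.073) or after quantile normalization (-0.80, 0.054). Signs that turned were those of Sstr1 with the title-number set as a term (-0.13), Sstr3 with array weights (-0.008) and Sst in female rats only (-0.021), all for both doses. Same-numbered arrays correlated at -0.183 to 0.085 after group means were removed, with 0 of 7 pairs over 0.1. Controls of both sets shared a common mean there, and some same-numbered arrays differed in sex. These values therefore cannot decide whether the numbers pair samples. With the replicate block Sstr2 was -0.71 (adjusted p = 0.070) for both doses and -0.93 (0.89) at 20 mg/kg. Sstr3 was then 0.44 (0.24) at 30 mg/kg, 0.001 (adjusted p = 1) at 20 mg/kg and 0.44 for 30 minus 20 mg/kg. Under the same block Sstr1 was -0.36 for both doses, 0.39 at 30 mg/kg, -1.77 at 20 mg/kg and 2.16 for 30 minus 20 mg/kg, and Sstr5 was -0.31 for the last.

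The number of genes called for both doses, 215, was 100 without the sex term, 424 with array weights, 712 with the set as a term and 12 in female rats only. At 30 mg/kg, 1240 became 72 with the block. At 20 mg/kg, 171 became 55 without the sex term, 0 with the block, 113 after quantile normalization and 577 with array weights; for 30 minus 20 mg/kg, 1752 became 0 with the block. Without the sex term the calls were 62 in place of 16 within numbers 1 to 4 and 55 in place of 173 within numbers 5 to 10. Higher and lower calls, 531 and 709 at 30 mg/kg, were 756 and 639 after median centring; at 20 mg/kg, 95 and 76 were 43 and 70 after quantile normalization; for 30 minus 20 mg/kg, 569 and 1183 were 936 and 960 after median centring, which put the median of all genes at 0.118.

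Leaving out 1 array at a time, the changes for both doses ran from -0.24 to 0.28 for Sstr1, -0.78 to -0.59 for Sstr2, 0.06 to 0.21 for Sstr3 and 0.05 to 0.19 for Sstr5, with 46 to 249 genes called. At 30 mg/kg they ran from -0.69 to -0.01, -0.69 to -0.48 (called only without control 2, adjusted p = 0.022), 0.41 to 0.59 and 0.13 to 0.30, with 456 to 1563 genes. At 20 mg/kg they ran from -0.051 to 0.68, -0.83 to -0.66, -0.16 to -0.04 and -0.001 to 0.14, with 22 to 470 genes. For 30 minus 20 mg/kg they ran from -1.13 to -0.34, 0.09 to 0.25, 0.52 to 0.70 and 0.08 to 0.22, with 321 to 2172 genes. Within numbers 1 to 4 they ran from -0.085 to 0.61, -0.94 to -0.58, 0.32 to 0.62 and -0.092 to 0.11, with 1 to 16 genes, and within numbers 5 to 10 from -0.89 to 0.60, -0.73 to -0.34, -0.13 to 0.05 and 0.32 to 0.45, with 22 to 250 genes. For male minus female they ran from 0.74 to 1.68, -0.45 to -0.27, -0.25 to -0.08 and -0.20 to -0.12, with 0 to 181 genes. Where a setting changed a result, the cause was not tested. Slc6a2 at 20 mg/kg passed after median centring, the 25th percentile filter and trended and robust variances (adjusted p = 0.043 each) and with array weights (0.025), and its call for both doses was lost in female rats only (0.16).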
